A study of Mus musculus with 6 samples.

Results

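Acetylation of lysine 9 on histone H3 (H3K9ac) was compared between mice colonized with Escherichia coli alone and germ-free mice, using 4 of the 6 libraries of the series. The 4 were chosen by their labels: 2 germ-free and 2 E. coli-monoassociated. The source of each was epithelium: intestinal epithelial cells, taken from the distal intestine of mice of strain C57BL/6 and immunoprecipitated with 1 lot of 1 antibody against H3K9ac. The other 2 libraries came from conventionally housed mice. The strain of E. coli, the age and sex of the mice and the time since colonization are not stated in the labels, and nothing there says that the 2 libraries of a group were made from separate animals. P-values therefore measure only the spread between these samples, which may be technical.

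H3K9ac marks promoters of genes that are being transcribed and lies mostly on the nucleosomes just after the transcription start site. Acetyltransferases such as GCN5, PCAF and their complexes place it, and histone deacetylases remove it. Some deacetylases work only inside corepressor complexes, and inositol phosphates bind at the contact between deacetylase and corepressor. Epithelial cells of the intestine lie next to the bacteria of the lumen, and a germ-free mouse given a single bacterial species shows that tissue with 1 known colonizer.

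Each library was held as its own list of called peaks, so the comparison is one of presence or absence. Both E. coli lists were shorter than both germ-free lists. The germ-free lists held 4430 and 17094 intervals (replicates 1 and 2) and the E. coli lists 1988 and 870. These covered 1196 and 6610 kb of the nuclear genome in germ-free mice and 562 and 294 kb in E. coli-monoassociated mice. A gene was counted where an interval assigned to it touched the window of 1 kb before to 1 kb after its start site, and 2412 and 6504 protein-coding genes were counted in the germ-free lists against 922 and 410 in the E. coli lists. On the log2 scale the number of promoter genes was 11.95 ± 1.01 in germ-free and 9.26 ± 0.83 in E. coli-monoassociated mice (SD, n = 2 each), a geometric mean 6.44 times as high in germ-free mice. No list of one group fell among those of the other (exact permutation p = 0.33, two-sided). With 3 ways to split 4 libraries this is the smallest p that the design allows, so no difference between the groups could pass 0.05.

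**Figure D1:**
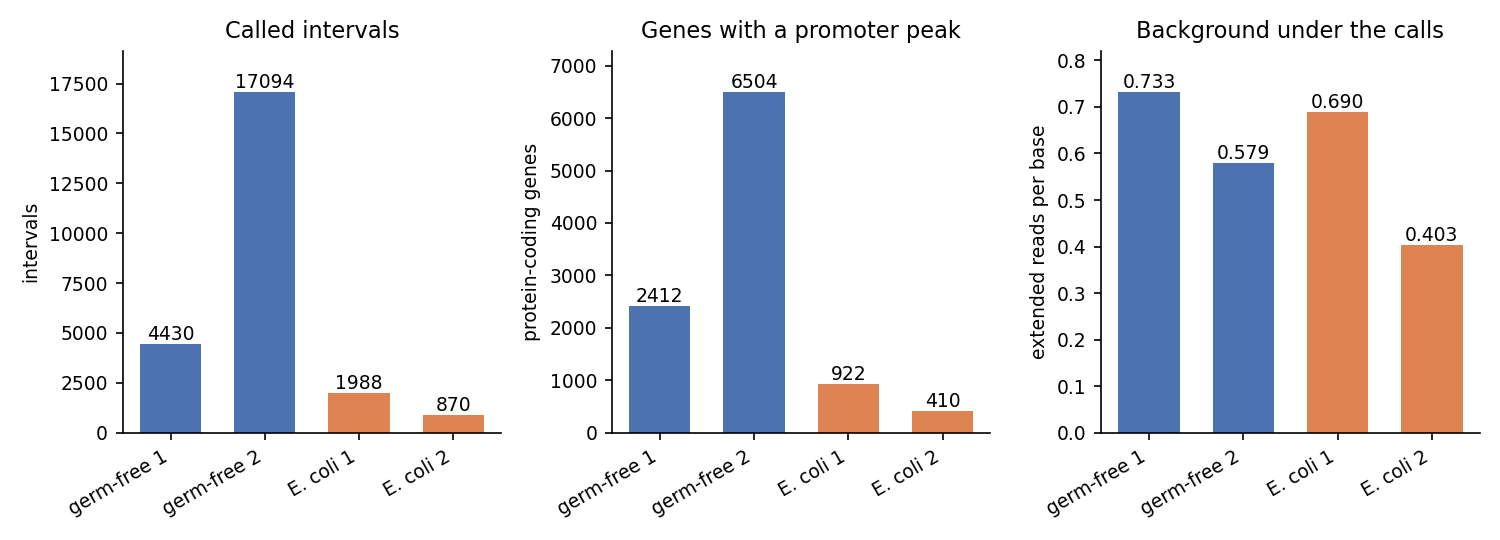
Bars give, for each of the 4 peak lists, the called intervals, the protein-coding genes with a promoter peak, and the background pileup under the calls (extended reads per base, inferred for germ-free 2). The E. coli bars (870 and 1988 intervals) are lower than both germ-free bars, while the background of E. coli 1 (0.690) is near that of germ-free 1 (0.733).

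The lists did not rest on equal depth. The background pileup, the mean coverage against which a peak is judged, was 0.733 and 0.579 extended reads per base in the germ-free lists and 0.690 and 0.403 in the E. coli lists. E. coli replicate 2 thus had 55.0% of the background of germ-free replicate 1, and germ-free replicate 2, with the longest list, had 78.9%. The lowest fold enrichment that was called was 4.04 and 3.80 in the germ-free lists and 4.14 and 4.28 in the E. coli lists, and a promoter below these values may still carry the mark. The part that depth and immunoprecipitation yield had in the list lengths was not tested; the labels give 20 M reads for every library. In the pair nearest in background, germ-free 1 and E. coli 1, 1737 genes had a promoter peak in the germ-free list alone, 247 in the E. coli list alone and 675 in both, which is 28.0% of the germ-free and 73.2% of the E. coli genes.

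Some markers of absorptive epithelium were called, and those of other tissues were not, apart from 1 erythroid gene. Of 14 enterocyte markers, 5 and 8 had a promoter peak in the germ-free lists and 3 and 2 in the E. coli lists, Vil1 and Anpep in all 4. Only 8 of the 14 were called in any of the 4 lists. Alpi, Aqp8, Car4, Fabp1, Sis and Slc26a3 were called in none of them. Goblet cell markers had peaks for 7 of 12 genes in germ-free 2 and for 0 in the other 3 lists, and stem cell markers for 2 and 4 of 14 genes in the germ-free lists and 0 in the E. coli lists. Paneth, enteroendocrine and tuft cell markers had none in any of the 4 lists, and neither had the lists for T cells, B and plasma cells, myeloid cells, fibroblasts, endothelium, smooth muscle and enteric neurons and glia. Of 7 erythroid markers 1 had a peak, in germ-free 2. The goblet calls thus came from germ-free 2 alone, the longest list. Conventional 1 and conventional 2 called 1 and 3 of the 12 goblet markers, and conventional 2 held 15352 intervals. The part of goblet cells in the group difference was not tested. A bulk list cannot tell apart fewer cells of a type and less of the mark in each cell.

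Most genes marked in both germ-free lists had no called peak in E. coli-monoassociated mice, and no gene had the opposite pattern. Both germ-free lists called a promoter peak at 2229 genes, of which 1463 had one in neither E. coli list (65.6%), 435 had one in E. coli 1 alone, 100 in E. coli 2 alone and 231 in both E. coli lists (10.4%). Of the 249 genes marked in both E. coli lists, 0 lacked a peak in both germ-free lists (0%). The other 18 of them were marked in 1 germ-free list, 15 of them in germ-free 2 and 3 in germ-free 1. Without E. coli 2 the opposite pattern held for 22 genes, and without germ-free 2 for 15. Of all 6712 genes marked in any of the 4 lists, 3993 were called in germ-free 2 only, so 1 long list makes up most of the catalogue. List lengths limit these counts by construction. The E. coli lists held 922 and 410 genes, fewer together than the 2229, so many of the 2229 had to lack an E. coli call. No more than 249 genes could be in all 4 lists. Of the genes in E. coli 1 and E. coli 2, 96.6% and 98.3% were also in germ-free 2, which left few for the opposite pattern.

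**Figure D2:**
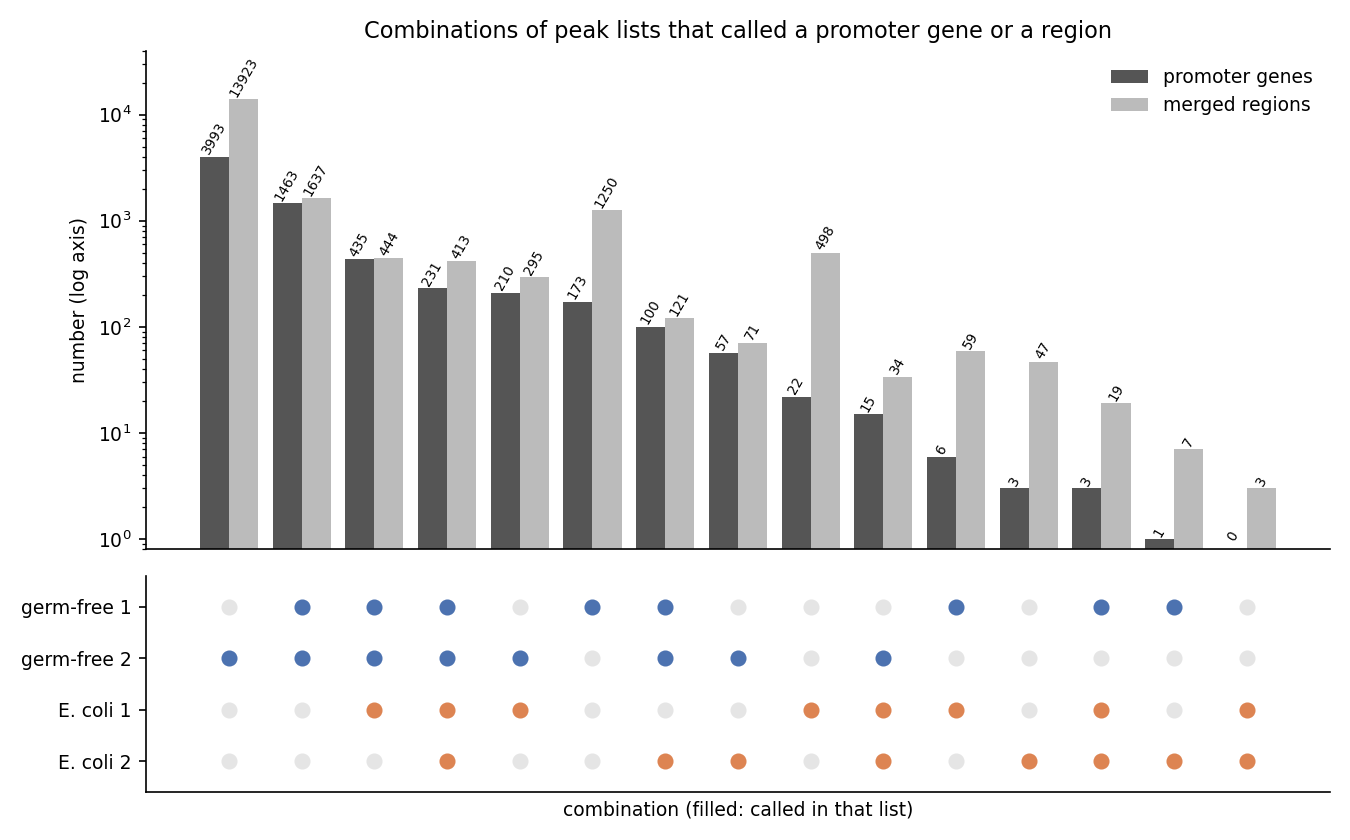
Each column is 1 combination of the 4 peak lists (filled dots below the bars), with the number of promoter genes (dark) and of merged regions (light) called in exactly that combination, on a log axis. The columns for germ-free 2 alone (3993 genes) and for both germ-free lists alone (1463 genes) are the highest for genes, and the column for both E. coli lists alone holds 0 genes and 3 regions.

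The strongest gene of the germ-free pattern was Ccnl1, which encodes cyclin L1, a partner of kinases that act on splicing factors. Its promoter peak had an enrichment of 13.3-fold in germ-free 1 and 12.7-fold in germ-free 2 and was not called in E. coli 1 or E. coli 2. It ranked within the top 2.39% and 1.53% of the germ-free lists. Both conventional lists called it as well. The peaks lay after the start site, at chr3:65957748-65958002 in germ-free 1 and chr3:65956676-65958185 in germ-free 2 (mm10, gene on the minus strand, start site at 65958225). These folds are the authors' own values of each peak against its own background. Apart from counts of genes above E. coli folds, given below, they describe or rank peaks within a list only. Where germ-free folds of a gene are set against its E. coli folds, no difference in the mark is read from them.

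Chordc1, a partner of the chaperone HSP90, followed with 9.23-fold and 10.8-fold in germ-free 1 and 2 and no peak in either E. coli list. Ywhah, an adaptor protein of the 14-3-3 family, had 9.23-fold and 12.7-fold, and Dusp16, a phosphatase of MAP kinases, had 9.23-fold and 10.1-fold. The pre-mRNA splicing genes Dhx38 and Txnl4b share 1 promoter with 9.23-fold and 9.50-fold. Capza2, which caps actin filaments, had 8.66-fold and 11.4-fold. Ip6k1, a kinase that turns inositol hexakisphosphate into a pyrophosphate, had 8.66-fold and 12.0-fold, and its peaks ran over chr9:108002750-108003295 and chr9:108002592-108003651 from the start site into the gene. All of these had no called peak in E. coli 1 or E. coli 2, and all were called in both conventional lists. The next by rank were Rad54l2, Hnrnpa3, Akt2, Rbbp6, Uspl1, Selenok, Clcn4, Ranbp2, Rab6a, Leng9, Cacul1 and Ccng2, with germ-free folds from 8.08 to 12.0. Hnrnpa3 (RNA binding), Akt2 (kinase of insulin signalling) and Ranbp2 (nuclear pore) stand for the range of functions among them. Of these 20 genes, Ranbp2 alone lacked a call in conventional 1, and none lacked one in conventional 2.

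Ordered by width instead of rank, the germ-free pattern began with Tapbpl, an editor of peptides on MHC class I, whose peaks were 851 and 993 bp wide. Cdipt, the phosphatidylinositol synthase, followed with 791 and 1327 bp. Slc51b, the beta subunit of the basolateral bile acid exporter, had 672 and 725 bp, and Ifnlr1, the receptor subunit for interferon lambda, had 668 and 889 bp. Keap1, the sensor that holds the oxidative stress factor NRF2 in check, had 664 and 909 bp. The others were Tm9sf1, Fbxw11, Rnd3, Gpcpd1 and Wdr77. Domains of at least 1 kb in both germ-free lists were found for 0 of the 1463 genes, against 20 of the 231 genes called in all 4. Such widths were rare in general: 1.09% of all promoter intervals in germ-free 1 and 8.11% in germ-free 2 were wider than 1 kb. The 231 genes also had stronger germ-free peaks, as described below.

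Genes called in all 4 lists were led by Sfi1, a centrosome gene in a cluster of strong intervals, Ino80d, a subunit of the INO80 remodeler, and Efcab2. Of regulators of the intestinal epithelium, Cdx2, the homeobox factor that sets intestinal identity, had 13.3-fold and 14.6-fold in germ-free 1 and 2 and 14.8-fold and 9.98-fold in E. coli 1 and 2. Its peak was 2436 and 6067 bp wide in germ-free mice and 2877 and 2163 bp in E. coli-monoassociated mice, so all 4 libraries held a domain of over 2 kb there. Vil1, which encodes villin of the microvillus core, had 10.4-fold and 13.9-fold against 10.1-fold and 9.98-fold. Gata5, a zinc finger factor of the gut, had 6.93-fold and 8.87-fold against 8.88-fold and 7.13-fold. The germ-free peaks of Gata5, at chr2:180333692-180334486 and chr2:180334713-180335217, did not overlap, and neither did those of Cltc, named below. Chromatin genes were Epc1 (a subunit of the NuA4 acetyltransferase complex), Ep300, Kmt5b, Kmt2e, Kmt2d and Prdm2 of the lysine methyltransferase families, and Zc3h4. Ep300, itself an acetyltransferase, had 8.08-fold and 12.7-fold in germ-free 1 and 2 and 7.69-fold and 7.84-fold in E. coli 1 and 2. Actb, Actg1, Src, Wasf2, Hexim2, Clec2h and Cltc complete the 20 that ranked best in their weakest list.

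**Figure D3:**
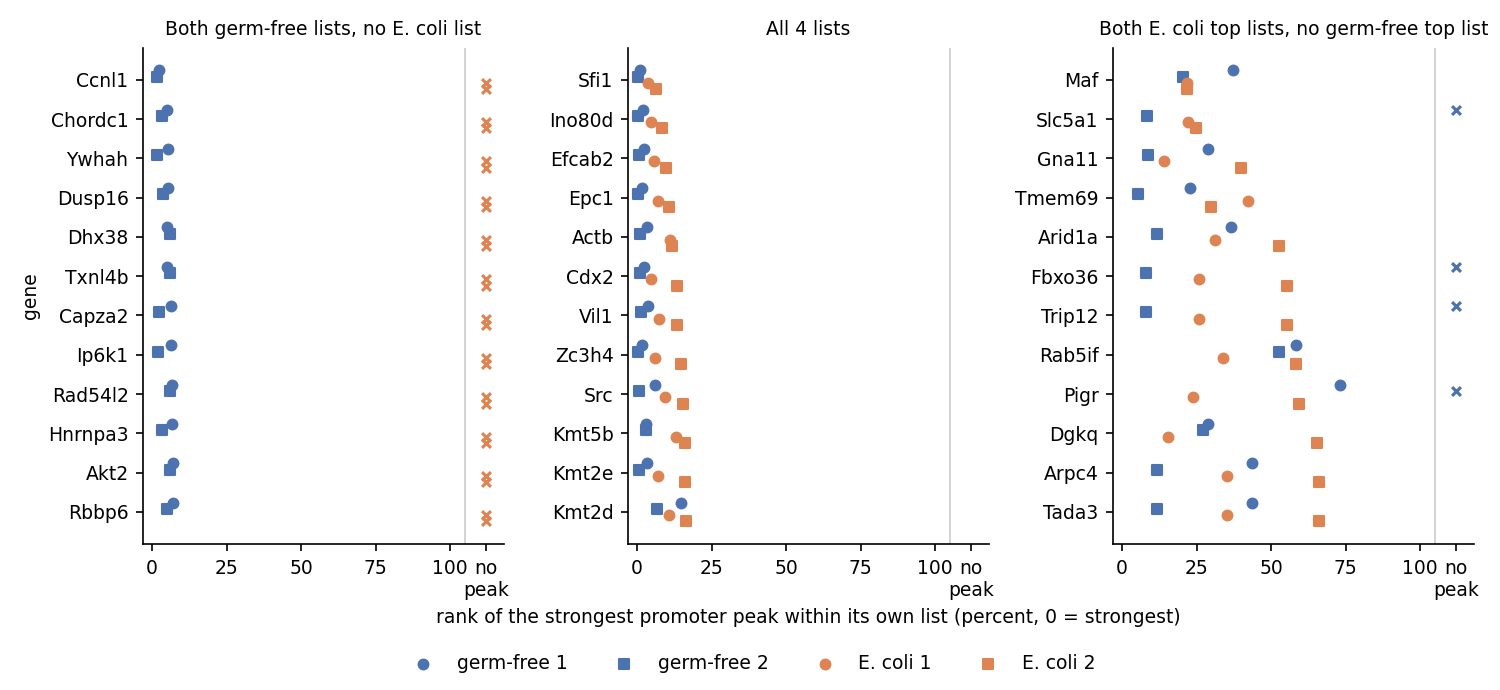
Points give the rank of the strongest promoter peak of a gene within each of the 4 lists, in percent of the list with 0 as the strongest; crosses mark lists with no peak. The 12 leading genes of each pattern are shown: those of the germ-free pattern lie within the top 7.09% of both germ-free lists and have no E. coli peak, the genes called in all 4 lists lie within the top 16.5% of each, and those of both E. coli top lists and neither germ-free top list (right) are spread over wider ranks.

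The sequence before the start site is shown for the leading gene of each pattern that has an entry in the RefSeq promoter table (GRCm38.p6), to set a promoter without E. coli calls beside 2 with them. Each run gives the 250 bases up to the start site, 5′ to 3′ on the strand of the gene, with matches to any searched motif in capitals. The table places the start of Ccnl1 24 bases further upstream than the peak lists do. The windows are chr3:65958250-65958499 (minus strand) for Ccnl1, chr5:147307250-147307499 (minus strand) for Cdx2 and chr5:33103969-33104218 (plus strand) for Slc5a1. Slc5a1 encodes the intestinal sodium-glucose transporter and is described below among the genes of both E. coli top lists.
Ccnl1: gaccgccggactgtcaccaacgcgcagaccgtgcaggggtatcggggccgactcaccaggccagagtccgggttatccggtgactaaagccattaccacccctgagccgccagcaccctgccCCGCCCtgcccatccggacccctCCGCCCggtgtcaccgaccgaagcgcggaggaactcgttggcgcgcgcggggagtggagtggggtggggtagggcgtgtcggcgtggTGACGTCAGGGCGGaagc
Cdx2: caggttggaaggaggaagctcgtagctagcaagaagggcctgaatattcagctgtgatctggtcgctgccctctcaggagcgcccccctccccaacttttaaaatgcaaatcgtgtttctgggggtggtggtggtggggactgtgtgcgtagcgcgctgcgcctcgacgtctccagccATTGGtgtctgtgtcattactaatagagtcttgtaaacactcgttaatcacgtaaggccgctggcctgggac
Slc5a1: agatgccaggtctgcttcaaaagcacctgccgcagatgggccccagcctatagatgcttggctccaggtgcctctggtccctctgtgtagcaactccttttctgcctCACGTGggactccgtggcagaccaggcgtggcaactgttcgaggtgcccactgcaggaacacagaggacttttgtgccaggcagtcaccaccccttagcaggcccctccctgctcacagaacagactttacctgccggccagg
The search took 10 motifs on both strands. They were the GC box (GGGCGG), the CAAT box (CCAAT), the E-box (CACGTG) and the TATA box (TATAAA), the cAMP response element or CRE (TGACGTCA), the AP-1 element (TGANTCA), and elements of ETS factors (CCGGAAG), CDX factors (TTTATGG), the factor HNF4 (CAAAGTCCA) and zinc finger factors of the GATA family (AGATAAG). Ccnl1 held a GC box at -128, -105 and -10 from the start site and, directly before the last of these, a CRE at -18. A GC box is present in 42.6% of the 21263 promoter windows of the same length in the table, and a CRE in 1.92%. Cdx2 held a CAAT box on the reverse strand at -72, a motif found in 35.4% of windows, and Slc5a1 an E-box at -143, found in 6.63%. In the 4 lists, the strongest promoter peaks of these 3 genes lay after the start site and did not overlap the printed bases. A match is a run of letters and not a bound site.

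In all 4 lists promoter peaks lay mostly after the start site. The median midpoint was 383, 366, 383 and 415.5 bp downstream in germ-free 1, germ-free 2, E. coli 1 and E. coli 2, and 77.2%, 69.6%, 80.8% and 78.4% of midpoints were downstream. The median width over all intervals was 194 and 261 bp in the germ-free and 193 and 222 bp in the E. coli lists, a difference of -20.0 bp with overlapping groups (exact permutation p = 0.667).

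The presence of an E. coli peak followed the strength of the germ-free peak. When the 2229 genes were split into 5 equal parts by the worse of their 2 germ-free ranks, 31.6% of the strongest part were called in both E. coli lists, and 10.5%, 4.94%, 2.91% and 1.79% of the parts that followed. The share called in neither was 35.7% in the strongest part and 84.3% in the weakest. The median peak of the 1463 genes was 198 bp wide in germ-free 1 and 505 bp in germ-free 2, against 423 and 1249 bp for the 231 genes called in all 4. In 1283 of the 1463 both germ-free folds were above 4.28, the highest of the lowest folds called in an E. coli list. In 523 both were above the median promoter folds of the E. coli lists, which were 5.33 and 5.70. Each fold is set against the background of its own list, so these counts do not show that such promoters could be called in an E. coli list. The 2 germ-free peaks overlapped at 1046 of the 1463 genes, 216 of the 231 and 1707 of all 2229. Conventional 1 called 40.1% and conventional 2 96.2% of the 1463 genes, and 94.8% and 100% of the 231. Of all 2229 genes they called 54.1% and 97.4%, so the share in conventional 2 was near that of all genes.

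Regions were formed by merging intervals of the 4 lists that overlapped by 1 bp or more, 18821 in all. Of 2615 regions in both germ-free lists, 1637 were in neither E. coli list (62.6%), and of 469 in both E. coli lists, 3 were in neither germ-free list (0.64%). By the authors' region classes, the germ-free pattern held for 1374 of 2096 promoter regions (65.6%, 95% Wilson interval 63.5 to 67.6), 62 of 98 upstream regions (63.3%, 53.4 to 72.1) and 106 of 181 intronic regions (58.6%, 51.3 to 65.5). It held for 27 of 66 exonic (40.9%, 29.9 to 53.0) and 68 of 174 intergenic regions (39.1%, 32.1 to 46.5). These intervals cover counting error only, and list lengths limit the counts as they do for genes. Intergenic regions were instead often called in all 4 lists, 81 of 174 (46.6%), against 245 of 2096 promoter regions (11.7%).

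**Figure D4:**
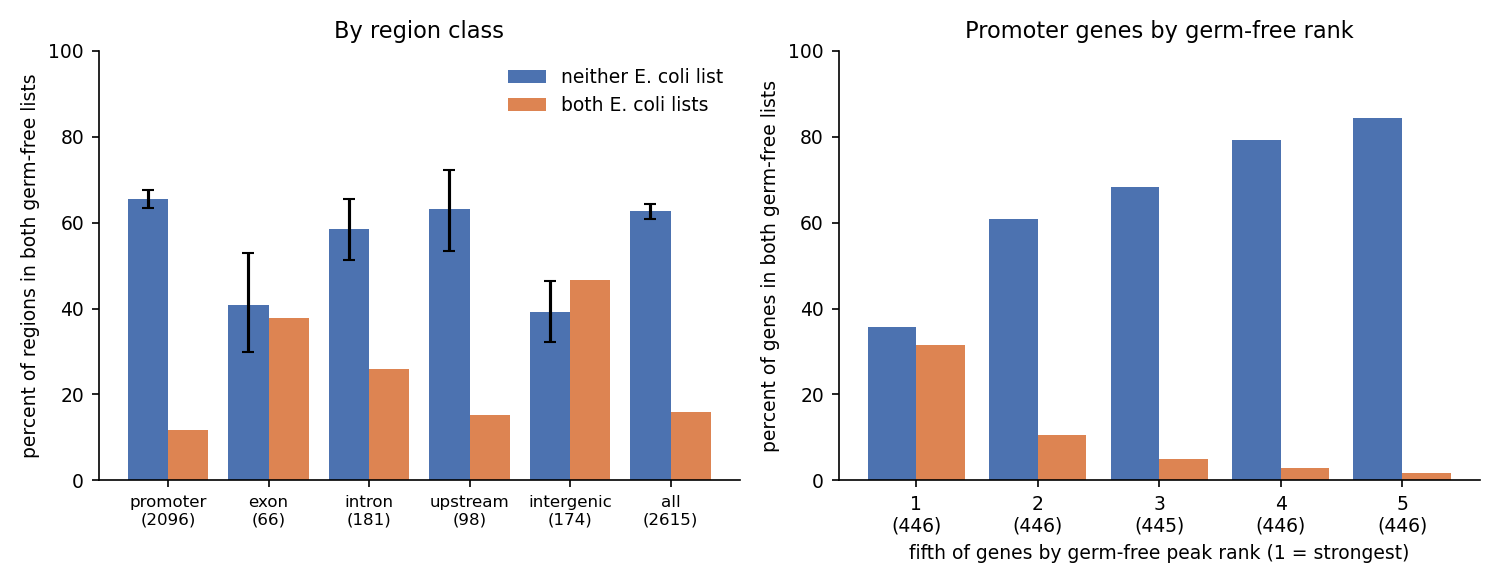
On the left, the percent of regions called in both germ-free lists that were in neither E. coli list (blue, with 95% Wilson intervals) or in both (orange), by region class with n in brackets; intergenic is the class whose orange bar (46.6%) is above its blue bar (39.1%). On the right, the same for promoter genes split into 5 parts by germ-free rank: blue goes from 35.7% in the strongest part to 84.3% in the weakest.

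The highest folds among the regions that all 4 lists shared were at a few intergenic and intronic regions. At chr2:98662162-98663051, an intergenic region, the folds were 241, 131, 253 and 148 in germ-free 1, germ-free 2, E. coli 1 and E. coli 2. At chr9:35305141-35305665 they were 240, 127, 253 and 148, and in an intron of Chl1, a neural adhesion molecule, at chr6:103648987-103649363, they were 156, 84.9, 158 and 100.5. These folds are above those of every epithelial promoter named here. On chromosome 11, exons, the promoter and the upstream side of Sfi1 held a run of further shared regions with folds from 12.0 to 32.3. Whether repeated sequence or copy number enters these values was not tested.

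Among the strongest regions of the germ-free pattern outside promoters, Kdm6b, which encodes a demethylase of H3K27, had an intronic region at chr11:69409270-69411074 with 7.50-fold and 8.87-fold in germ-free 1 and 2. An upstream region between Ache and Ufsp1 at chr5:137278019-137278880 had 6.93-fold and 12.0-fold and was called in neither conventional list. The strongest intergenic one, nearest to 2210408F21Rik at chr6:31125348-31126658, had 9.81-fold and 10.1-fold and was called in both conventional lists. At promoters the leading regions were those of Ccnl1 and Chordc1 and a second peak of Jun at chr4:95052678-95053291, a gene whose promoter window was otherwise called in all 4 lists.

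The 3 regions of the opposite pattern were weak to moderate. An intronic region of Slc5a1 at chr5:33105772-33106083 had 5.92-fold in E. coli 1 and 5.70-fold in E. coli 2 and was also called in conventional 2. Its peaks in E. coli 1 and E. coli 2, at chr5:33105938-33106083 and chr5:33105772-33105945, overlapped only at their edges. An intronic region of Sp140, a bromodomain protein of immune cells, at chr1:85606607-85606918 had 7.10-fold and 4.28-fold and was called in no other list. A region of the Ldb3 promoter at chr14:34588385-34588615 had 4.73-fold and 4.99-fold and was called in both conventional lists. Ldb3 also had a separate peak within its promoter window in both germ-free lists, with 4.62-fold and 5.07-fold, so the gene itself counts among the 231. Without germ-free 1 the 3 regions became 23, and without E. coli 2 they became 504.

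Within a list, promoters held a smaller and exons and intergenic regions a larger share of the intervals in E. coli-monoassociated than in germ-free mice. Promoters held 61.9% and 55.8% of nuclear intervals in the germ-free lists and 50.6% and 53.1% in the E. coli lists, a difference of -7.02 percentage points (exact permutation p = 0.33). Exonic shares were 3.23% and 2.81% against 5.24% and 7.72%, intergenic shares 12.4% and 9.65% against 18.8% and 15.4%, and upstream shares 6.05% and 9.53% against 5.04% and 4.49%, each without overlap (p = 0.33 by the same exact test). Intronic shares overlapped (16.4% and 22.2% against 20.4% and 19.2%). The 168 regions outside promoters that all 4 lists shared made up 4.52% and 1.16% of the germ-free intervals and 10.5% and 24.7% of the E. coli intervals. Without them, a setting chosen after seeing the data, the promoter shares were 64.9% and 56.4% against 56.5% and 70.5%. The promoter difference then turned to 2.83 percentage points and the groups overlapped. This setting removes no promoter, so by construction it raises the promoter share most in the shortest list. The exonic difference was 2.17 points and the upstream difference -3.95 points in it, both still without overlap (exact permutation p = 0.33). Among intervals with a -log10 q of 5 or more, the promoter difference was -31.0 points and the intergenic difference 16.8 points, without overlap, while the upstream difference was -0.72 points and the groups overlapped. At a fold of 5 or more the promoter difference was -13.0 points.

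Equal list lengths were used to set the 4 libraries side by side at the same number of calls. Among the 870 most significant intervals of each list by -log10 q, 520 and 650 genes had a promoter peak in the germ-free and 407 and 410 in the E. coli lists. The germ-free pattern then held for 73 of 224 genes (32.6%) and the opposite for 29 of 165 (17.6%), and 81 genes were in all 4 top lists. With 1 library left out, the counts (germ-free, then E. coli) were 384 against 56 without germ-free 1 and 297 against 57 without germ-free 2. They were 95 against 167 without E. coli 1 and 121 against 176 without E. coli 2. The rule of the group that lost a library then asks for 1 list instead of 2. Each time the count of that group was the larger, so the change of order cannot be read as a difference between the libraries. By regions it held for 71 of 348 (20.4%) and 47 of 362 (13%). The 4 lists reached different depths of evidence: their 870th interval had a -log10 q of 6.40, 11.9, 4.26 and 1.35. Since the germ-free top lists held more promoters, the 410 best promoter genes of each list were also compared, a setting chosen after seeing the data. The counts were then 40 of 158 (25.3%) against 39 of 166 (23.5%). For E. coli 2 these 410 genes were its whole catalogue. Libraries of 1 group shared 38.5% (germ-free) and 40.5% (E. coli) of their 410 genes, and the 4 pairs across the groups shared 35.4%, 39.3%, 33.9% and 38.0%. The range across the groups thus reached past the germ-free pair.

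Of the 29 genes in both E. coli top lists and in neither germ-free top list, 2 were digestion and transport genes, Slc5a1 and Slc51a. Maf, a basic leucine zipper factor, led the 29 genes with 5.77-fold and 6.97-fold in germ-free 1 and 2 and 6.51-fold and 7.84-fold in E. coli 1 and 2. Its 2 germ-free peaks, at chr8:115705747-115706056 and chr8:115707199-115707499, did not overlap. Slc5a1 was not called in germ-free 1 and had 8.87-fold in germ-free 2, 6.51-fold in E. coli 1 and 7.13-fold in E. coli 2. Its peaks covered chr5:33104404-33104774, chr5:33104378-33104853 and chr5:33104505-33104997, after the start site whose upstream sequence is printed. Slc51a, the alpha subunit of the bile acid exporter, was not called in germ-free 1 and had 5.07-fold, 5.92-fold and 4.99-fold in the other 3 lists. Its partner Slc51b, described above, was called in both germ-free lists and in no E. coli list. Both genes were called in germ-free 2 and in both conventional lists.

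Pigr, which encodes the receptor that carries IgA into the lumen, was called in germ-free 1 at 4.62-fold, not in germ-free 2, and in the E. coli lists at 6.51-fold and 5.70-fold. Slc9a3r1, a scaffold of brush border transporters, had 5.77-fold and 8.24-fold against 6.51-fold and 4.99-fold. Ihh, the hedgehog ligand of the epithelium, had 5.19-fold and 6.33-fold against 8.29-fold and 4.99-fold. Tab2, an adaptor between ubiquitin chains and the kinase TAK1, was not called in germ-free 1 and had 8.87-fold, 6.51-fold and 4.28-fold in the others. Chromatin genes among the 29 were Arid1a (SWI/SNF subunit), Msl1 (of a complex that acetylates histone H4), Kdm2a (demethylase of H3K36) and Tada3, a subunit of the GCN5 and PCAF acetyltransferase complexes that shares its promoter with Arpc4. The rest were Gna11, Tmem69, Fbxo36 and Trip12 (1 promoter), Rab5if, Dgkq, Chmp3, Ube2q1, Capzb, Fam187b and Lsr (1 promoter), Tfg, Bend7, Usp40, Itch, Aftph and Pmp22. Of the 29, 23 were called in the full list of germ-free 1, 27 in that of germ-free 2 and 21 in both. These 21 genes were thus called in all 4 full lists. All 29 were also among the 39 genes of the equal promoter lists.

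In the other direction, the germ-free top lists held Ccnl1, Crem, Capza1 with St7l, Prelid1 with Rab24, Chordc1, Ube2b, Letm2, Ywhah, Dusp16, Gmeb2, Capza2, Ip6k1 and Septin7. Crem, a factor that binds cAMP response elements, had 10.4-fold and 10.1-fold in germ-free 1 and 2, 4.73-fold in E. coli 1 and no peak in E. coli 2. Capza1, a second actin capping subunit, had 9.81-fold and 16.5-fold, 5.33-fold in E. coli 1 and none in E. coli 2. Of the 73 genes, 43 were in neither full E. coli list and 30 were in E. coli 1, outside its top 870 intervals. Of the 73, 40 remained when equal numbers of promoter genes were used.

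A promoter peak in an E. coli list and in no germ-free list was found for 25 genes, 22 in E. coli 1 and 3 in E. coli 2. Hdac7, a class IIa deacetylase, had 5.92-fold in E. coli 1, and Irf7, a factor that drives interferon genes, had 4.73-fold there; both were called in conventional 2. Mlst8, a subunit of the mTOR complexes, had 6.51-fold, Prkaca, the catalytic subunit of protein kinase A, 5.92-fold, and Cyba, a subunit of NADPH oxidases, 4.73-fold. In E. coli 2 they were Chp2 (6.41-fold), Sowaha (6.41-fold) and Lmbr1 (4.28-fold). Of the 25 genes, 18 were called in conventional 2, and each rests on 1 E. coli library.

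Gene lists are described by how many of their members marked in both germ-free lists had no E. coli peak, beside 65.6% of all genes, and how many were called in all 4 lists, beside 10.4%. They were not tested as sets, and the lists differ in the strength of their germ-free peaks, for which the counts are not adjusted. Factors of intestinal identity were mostly called: of 21, 4 had no E. coli peak, 5 had 1 and 12 had both. Klf5, a growth regulator of the crypt, had 9.81-fold and 15.8-fold in germ-free 1 and 2 and 7.69-fold and 6.41-fold in E. coli 1 and 2. Elf3, an epithelial ETS factor, had 7.50-fold and 12.0-fold against 5.92-fold and 4.28-fold. Isx was called in E. coli 2 only of the E. coli lists (5.70-fold). Those with no E. coli peak included Ppard, a receptor for fatty acids, Bcl6 and Tcf7l2, the Wnt effector. In germ-free 1 and E. coli 1 alone, a pair chosen after seeing the data, 15 of 22 were shared, beside 28.0% of all genes.

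Structural genes of the epithelium stood between. Of 27 junction genes 11 had no E. coli peak and 7 were called in all 4 lists, among them Cldn7, Epcam, Dsg2 and Cdh1. Cdh1, which encodes E-cadherin, had 7.50-fold and 10.8-fold in the germ-free pair and 4.14-fold and 4.99-fold in E. coli 1 and 2. Ctnna1 (7.50-fold and 9.50-fold) and F11r (6.93-fold and 12.7-fold), a catenin and an adhesion molecule of junctions, had germ-free peaks only. Of 14 brush border and cytoskeleton genes 5 had no E. coli peak and 7 were called in all 4, among them Myo7b, Ezr and Vil1. The keratins split: Krt8 was called in both germ-free lists and E. coli 1 (8.88-fold), while Krt18 (6.93-fold and 10.8-fold) and Krt19 (6.93-fold and 15.8-fold) had germ-free peaks only. Of 11 digestion and transport genes 4 had no E. coli peak, among them Slc51b, the ferroxidase Heph and the amino acid transporter subunit Slc7a9, and 3 were in all 4 lists. These were Slc6a19, an amino acid transporter, Atp1b1, of the sodium pump, and Anpep, a peptidase. Of 7 lipid genes 4 had no E. coli peak, among them Plin3, Mttp and Apob, the last of these the protein frame of chylomicrons, with 5.19-fold and 14.6-fold. Dgat1 and Hadha were called in all 4.

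**Figure D5:**
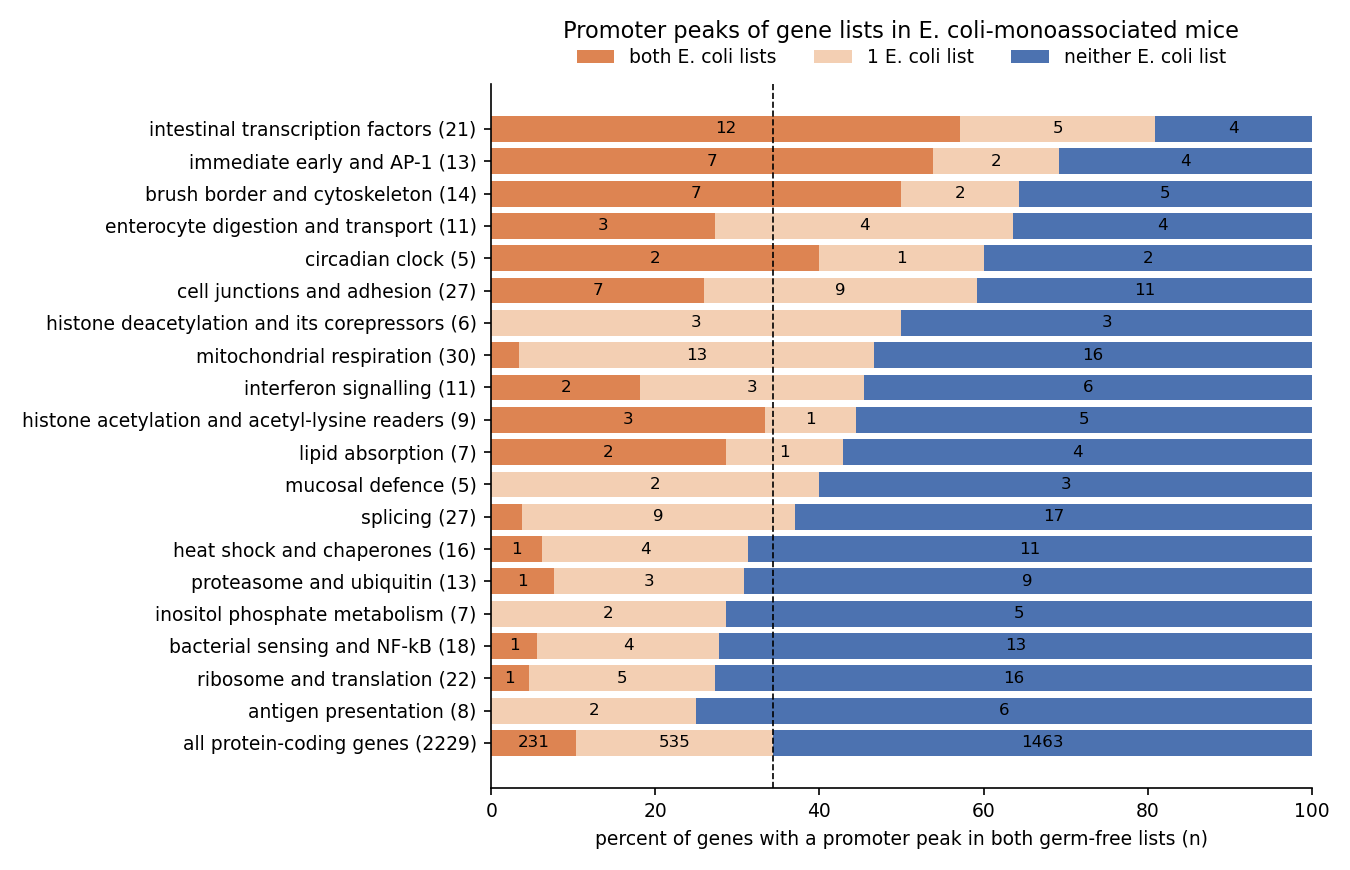
Each bar splits the genes of a list that both germ-free lists called (n in brackets) into those called in both E. coli lists, in 1 and in neither, with gene numbers inside; lists are ordered by the last share and the dashed line marks the value for all genes. Intestinal transcription factors (12 of 21 in both E. coli lists) stand at the top, and antigen presentation (6 of 8 in neither) at the bottom.

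Genes that place, remove or read acetyl groups were divided. Their counts are to be read beside 65.6% of all genes with no E. coli peak. Of 6 deacetylase and corepressor genes, Sin3b (6.93-fold and 6.33-fold), Rcor1 (5.77-fold and 5.70-fold) and Hdac2 (5.19-fold and 8.24-fold) had germ-free peaks only. Mta3, Mta2 and Ncor1, the last a scaffold of the HDAC3 complex with 5.77-fold and 11.4-fold, were also called in E. coli 1 (4.73-fold, 8.88-fold and 5.33-fold). None of the 6 was called in E. coli 2, which called only 331 of all 2229 genes marked in both germ-free lists. Of 9 acetyltransferase and reader genes, 5 had germ-free peaks only, among them Brd7, Mllt1, Brpf3 and Brd1. Brpf1 was in E. coli 1, and Brd2, Ep300 and Tada3 were in all 4. Of 7 inositol phosphate genes, Ip6k1, Cdipt, Ipmk (6.35-fold and 12.7-fold), Inpp5j and Inpp5k had germ-free peaks only, and Plcb3 and Mtmr3 were also called in E. coli 1. Ipmk encodes a kinase that makes higher inositol phosphates.

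Genes of bacterial sensing were near the value of all genes. Of 18 genes of sensing and NF-kB signalling 13 had no E. coli peak, and Nfkb1 alone was called in all 4 lists (8.66-fold and 12.0-fold against 5.92-fold and 7.13-fold). The 13 included Ikbkb, the kinase that releases NF-kB, Map3k7 (TAK1), Rela, Traf3, Nlrc4, which serves the detection of flagellin, and Nlrp6. Traf6, Chuk, Irak2 and Ticam1 were also called in E. coli 1. Cd14, the co-receptor for lipopolysaccharide, was not called in germ-free 1 and had 5.70-fold in germ-free 2 and 5.33-fold in E. coli 1. Of 5 mucosal defence genes Ccl25, Nlrp6 and Il22ra1 had germ-free peaks only, Stat3 was also in E. coli 1 and Il10rb in E. coli 2. Of 11 interferon genes 6 had none in the E. coli lists, among them Ifnlr1, Irf3 and Jak1, and Ifngr1 and Irf2 were in all 4. Of 8 antigen presentation genes 6 had none, among them Canx, Calr and Pdia3, which fold MHC class I, while B2m (6.35-fold and 4.43-fold) and H2-D1 were called in E. coli 1 (5.92-fold and 7.10-fold).

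Immediate early genes were often called in all lists, 7 of 13, with 4 in no E. coli list. Jun had 9.23-fold and 13.3-fold in the germ-free pair and 5.33-fold and 5.70-fold in E. coli 1 and 2, Fos had 8.66-fold and 11.4-fold against the same 5.33-fold and 5.70-fold, and Zfp36 had 9.23-fold and 21.5-fold against 6.51-fold and 6.41-fold. Ier2, Mafk, Btg1 and Dusp1 had germ-free peaks only. Of 5 clock genes, Npas2 and Clock had germ-free peaks only, Csnk1d was also in E. coli 1, and 2 were in all 4, among them Nr1d1.

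Of the housekeeping lists, each had 1 gene called in both E. coli lists, beside 10.4% of all genes called there, and the share with no E. coli peak is to be read beside 65.6% of all genes. Of 30 mitochondrial respiration genes 16 had no E. coli peak, 13 had 1 and Atp5b alone was in all 4, and Ogdh was the only gene of the 13 that was called in E. coli 2. Of 22 ribosome and translation genes 16 had none and Eif4a2 alone was in all 4. Of 27 splicing genes 17 had none, among them Srsf1 (9.23-fold and 7.60-fold) and Hnrnpc, and Rbm39 alone was in all 4. Of 13 proteasome and ubiquitin genes 9 had none and 1 was in all 4, and of 16 heat shock and chaperone genes 11 had none, with Hspa8 in all 4 (8.08-fold and 14.6-fold against 5.92-fold and 7.84-fold). In germ-free 1 and E. coli 1 alone, 4 of 23 ribosome and translation genes were shared (17.4%), 10 of 27 splicing genes (37.0%) and 13 of 34 mitochondrial respiration genes (38.2%), beside 28.0% of all genes.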

How the data were processed

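Groups and replicate numbers came from the sample labels, 2 libraries per group. Per the labels, single-end 50 bp reads were made, 20 M per library. The genome was mm10 and the tools were MACS2 2.1.1.20160309 and Bowtie 1.2.0, per the submitters' processing notes. Peak calling options and any input control: not given in the sources used here. Every deposited file holds 1 library's peak list, called per sample. It gives, per the file headers, the pileup at the summit (a coverage signal), the -log10 p-value, the fold enrichment (a ratio to background) and the -log10 q-value as the authors deposited them, with the authors' region class and nearest gene. The list of germ-free 2 has 14 header names over 13 cells and lacks pileups, so the values themselves showed which column is which, and its background was inferred from the steps between folds.

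Lines repeating an interval were merged. Of 10621 gene names 10594 matched the RefSeq table of GRCm38.p6 and 27 did not; protein-coding genes were kept. The window differed from the authors' promoter class at no more than 3 intervals of a list. Mitochondrial intervals were left out of shares, regions and genes. Calls were compared between lists. Scores were not, apart from counts of genes with germ-free folds above the lowest and median folds of the E. coli lists. Folds of a gene in several lists are printed side by side as description only, each relative to the background of its own list. Group values were compared by exact two-sided permutation over 3 splits. A gene's rank is that of its strongest promoter peak by -log10 q. Named genes are the 20 best by the worse germ-free rank and 10 widest, the 20 best in all 4 lists, 15 and up to 30 of the top lists, 3 regions per class, and list members by rank; some others, such as the keratins and the genes called in 1 E. coli list alone, were named after their values were seen. Members, the 34 gene lists and rules were chosen with earlier results of these data known. Pattern counting was tested on simulated lists, where 100% of 220 planted genes were recovered. GC content and motif shares were not compared between gene sets, because the promoter table held 74.9% of the genes called in all 4 lists, under 80%. Alternatives covered thresholds, windows, overlaps, list lengths and leaving out each library. The tools were SciPy 1.17.1, NumPy 2.4.6, pandas 2.3.3 and matplotlib 3.10.9 under Python 3.11.15. Some genes that the rules name are not reported here.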

Additional observations from a re-analysis of the deposited data

How the results depend on the processing

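Over 4 libraries no test could pass 0.05, peaks under 3.80-fold are not listed, and the part of depth in the shorter lists was not tested. When each library was left out in turn, the log2 difference in intervals was -1.75 to -3.70, that in covered kb -1.56 to -4.02 and that in promoter share -3.95 to -10.1 points. The promoter share difference, -7.02 points, became -31.0 when intervals needed a -log10 q of 5, and -13.0 when they needed a fold of 5. Without the non-promoter regions called in all 4 lists, added after seeing the data, the promoter share turned to 2.83 and the intron share to -2.27 points. The intron share ranged from -2.40 (without germ-free 1) to 3.44 with 1 library left out, and was -0.0574 without E. coli 1. With the replicate number as a replicate block, the interval difference was -2.73 (sign flips over 2 pairs, exact p = 0.5). The difference in calls between replicates 1 and 2 of the germ-free group correlated with that of the E. coli group at r = 0.175 over 18821 regions; with 2 pairs the numbers were not taken to pair the samples.

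Leaving out 1 library, the 1463 genes ranged from 1563 to 5456 (the highest without germ-free 1), the 0 opposite genes from 3 to 22, the 231 from 234 to 666 (the highest without E. coli 2), the 1637 regions from 1758 to 15648 and the 3 from 23 to 504. Top-list genes ranged from 95 to 384 (germ-free) and 56 to 176 (E. coli), and top-list regions from 93 to 445 and from 82 to 364. With 410 promoter genes per list, the 40 and 39 became 207 and 74 without germ-free 1, 210 and 60 without germ-free 2, 55 and 196 without E. coli 1, and 72 and 212 without E. coli 2. Leaving out a library loosens both rules by construction, and the rule of its own group then asks for 1 list only.

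At a -log10 q of 5 or more, 561 genes and 578 regions had the germ-free pattern, 29 genes were in all 4 lists and 1 region had the opposite pattern. At a fold of 5 or more, 137 genes were in all 4 and 1 gene had the opposite pattern. With replicate 1 of each group alone, 247 genes and 995 regions had the opposite pattern, 3462 regions the germ-free pattern, and 675 genes were in both. A window of 500 bp gave 1 opposite gene, 132 in all 4 and 19 top-list E. coli genes. An overlap of 500 bp gave 134 germ-free genes and 12 in all 4. The top 500 intervals gave 36 and 10 genes and 32 and 26 regions (germ-free, then E. coli), and the top 250 gave 19 and 4, and 13 and 11. Equal lists of 410 promoter genes gave 40 germ-free genes, and lists of 200 gave 17 and 18 genes. In all, 76 recomputed values kept their direction, and the counts among them stayed within 1.5 times. Another 52, all of them counts, did not stay within that range, and 4 shares reversed their direction. The cause of these changes was not tested.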

Other observations

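Beside the patterns of 2 against 2, 18 genes had a promoter peak in both E. coli lists and in 1 germ-free list. In 15 of them that list was germ-free 2. They included Ifngr2, a receptor subunit for interferon gamma, with 7.60-fold in germ-free 2, 4.73-fold in E. coli 1 and 5.70-fold in E. coli 2. The mitochondrial genes Cpt2 (fatty acid import, 11.4-fold, 5.33-fold and 4.99-fold), Mcu (calcium uniporter, 13.3-fold, 4.14-fold and 4.99-fold) and Atp5j (ATP synthase, in 1 promoter with Gabpa, 6.97-fold, 5.33-fold and 4.99-fold) showed the same calls. In the other 3, Adap1, Bend7 and Pigr, it was germ-free 1, and none of these was called in germ-free 2, although that list is the longest; Adap1 had 7.50-fold in germ-free 1, 4.73-fold in E. coli 1 and 4.99-fold in E. coli 2. Fabp6, which binds bile acids in cells of the ileum, was the 1 gene called in germ-free 1 (4.62-fold) and E. coli 2 (4.28-fold) alone of these 4 lists, and it was also called in both conventional lists. These genes were singled out after their values were seen.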
